A study of Mus musculus with 22 samples.

Results

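The 200 megabase bins of the mouse autosomes in which cerebellum kept the most 5-hydroxymethylcytosine (5hmC) relative to cortex and olfactory bulb are described here. They were chosen by the 5hmC level itself. Of the 2641 bins of 1 Mb, 2470 lay on autosomes and 2052 of these had a level of at least 0.05 in all 9 TAB-seq libraries. For each of the 2052 bins the cerebellum mean was divided by the mean of the cortex and olfactory bulb means, and the 200 bins with the highest ratio were taken. The choice therefore used every 5hmC value reported below, and the 5hmC levels are a description with no test. Genes, gene lengths and 5-methylcytosine (5mC), which was measured in other libraries, had no part in the choice. A given cytosine cannot carry both marks at once, however, so that a choice by 5hmC is not independent of the 5mC level.

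Whole cerebellum, whole olfactory bulb and cerebral cortex without the hippocampus came from female C57BL/6 mice of 8 weeks, untreated, with replicates from separate mice. TAB-seq, which reads only 5hmC as cytosine, had 3 libraries per tissue. OxBS-seq, which reads only 5mC as cytosine, had 3 cortex libraries and 2 each of cerebellum and olfactory bulb. All values are fractions between 0 and 1 per genomic bin, and since the deposited values carry no read counts, the depth behind a bin is unknown and the error given is the SD between libraries. The tissues were analysed whole, so that a different mixture of cells and a different level within cells cannot be told apart. The DNA data hold no transcripts with which the tissue labels could be checked. RNA-seq libraries of these tissues in the same series were not used here. In oxBS-seq, cortex replicate 3 stood apart, with a mean level over the 25664 tested bins of 100 kb of 0.660 against 0.684 and 0.687 in the other cortex libraries, and the main counts of 100 kb bins that compare cortex are given with and without it.

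Methyl groups are added to cytosine by DNA methyltransferases, mostly where cytosine is followed by guanine (a CpG site), and TET enzymes oxidize 5mC to 5hmC. Neurons hold more 5hmC than most other cells, and within neurons it is found mostly over the bodies of transcribed genes, where 5mC is low. The cerebellum is made up largely of granule neurons, small excitatory cells whose axons contact the Purkinje cells, while cortex and olfactory bulb hold other mixtures of neurons and glia.

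Examples of sequence from the members are the promoters of the genes that fill the 3 highest-ratio bins, and a window from the member 100 kb bin whose 5mC fell most from cortex to cerebellum. The promoters run from 250 bases before to 50 bases after the RefSeq start in GRCm38.p6. CpG sites are in capitals, and the deposited levels, given per bin, do not resolve single sites.
Fgf14, chr14:124192497-124192796, minus strand: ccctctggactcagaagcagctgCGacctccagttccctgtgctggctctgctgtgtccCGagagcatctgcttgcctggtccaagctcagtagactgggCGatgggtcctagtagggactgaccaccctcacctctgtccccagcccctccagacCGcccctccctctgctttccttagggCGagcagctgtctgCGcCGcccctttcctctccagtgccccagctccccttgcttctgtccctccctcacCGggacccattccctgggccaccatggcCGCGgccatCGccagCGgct
Cadps2, chr6:23839372-23839671, minus strand: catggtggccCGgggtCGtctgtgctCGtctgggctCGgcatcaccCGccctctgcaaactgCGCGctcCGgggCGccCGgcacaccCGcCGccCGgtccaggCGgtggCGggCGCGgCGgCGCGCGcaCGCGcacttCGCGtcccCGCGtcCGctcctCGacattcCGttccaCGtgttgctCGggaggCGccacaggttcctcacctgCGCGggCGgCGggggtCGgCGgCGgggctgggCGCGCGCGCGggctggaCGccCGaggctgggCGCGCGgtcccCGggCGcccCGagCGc
Rims1, chr1:22806109-22806408, minus strand: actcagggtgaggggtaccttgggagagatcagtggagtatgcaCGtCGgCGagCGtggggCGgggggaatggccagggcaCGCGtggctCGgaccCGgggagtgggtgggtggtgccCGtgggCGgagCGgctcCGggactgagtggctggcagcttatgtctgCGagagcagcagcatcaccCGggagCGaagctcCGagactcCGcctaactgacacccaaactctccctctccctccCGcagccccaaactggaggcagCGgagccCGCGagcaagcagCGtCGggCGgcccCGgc
Chd7 window, chr4:8749901-8750100, plus strand: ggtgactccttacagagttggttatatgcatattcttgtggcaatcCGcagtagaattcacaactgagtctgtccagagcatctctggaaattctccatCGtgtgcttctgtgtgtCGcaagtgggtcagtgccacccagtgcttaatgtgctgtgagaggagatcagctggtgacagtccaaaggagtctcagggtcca
The promoters held 12, 54 and 26 CpG sites, against a median of 7 over the 32851 promoters of the RefSeq table. Fewer sites were held by 60.4%, 99.7% and 83.1% of those promoters. Promoters of the other members were not counted, so that these examples do not describe the members as a whole. The start listed for Fgf14 lies inside the gene as GENCODE draws it, on the minus strand from 123977907 to 124677127. The Chd7 window of 200 bases, chosen only as the middle of its bin, held 3 CpG sites. The Cadps2 promoter lies in a 100 kb bin whose 5mC was lower in cerebellum, while the Rims1 promoter lies in a bin whose 5mC was higher in cerebellum than in cortex, as described below.

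Over the 200 members, 5hmC averaged 0.168 ± 0.00251 in cerebellum, 0.172 ± 0.00449 in olfactory bulb and 0.190 ± 0.0109 in cortex (SD of 3 libraries each). The cerebellum libraries had 0.167, 0.165 and 0.170, the olfactory bulb libraries 0.170, 0.177 and 0.169 and the cortex libraries 0.188, 0.201 and 0.180. Cerebellum lay below cortex and overlapped olfactory bulb. Over the other 1852 eligible bins the means were 0.103, 0.161 and 0.180. The ratio ran from 0.842 to 1.427 in the members with a median of 0.900, and its median over all eligible bins was 0.626. Members were thus close to the other bins in cortex and olfactory bulb, and the difference in the ratio lay mostly in the cerebellum level. The bins just inside the limit were those of Nacc2 (ratio 0.84243) and Lhfp (0.84224), and the bins just outside were those of Gbf1 (0.84176) and Hivep3 (0.84152), so that the limit marks no gap.

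**Figure D1:**
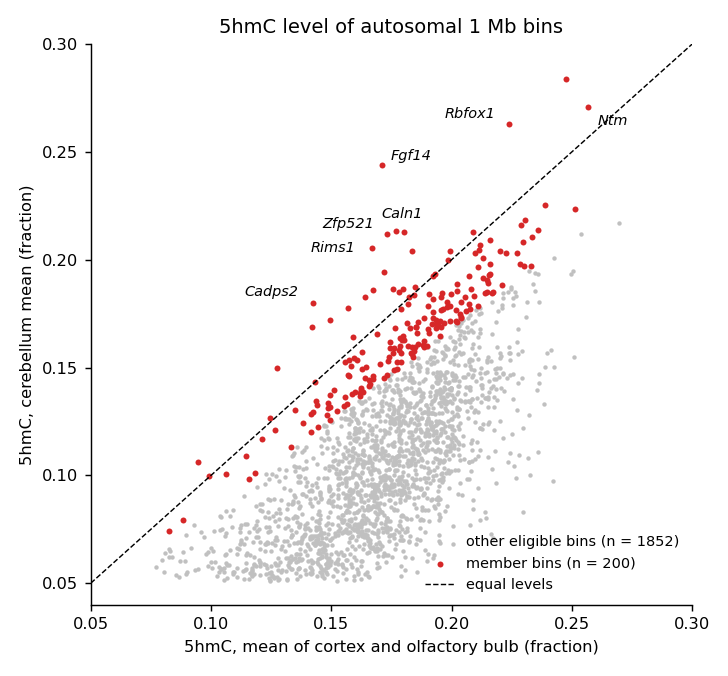
5hmC level of 2052 autosomal 1 Mb bins, as the cerebellum mean (vertical axis, fraction) against the mean of cortex and olfactory bulb (horizontal axis, fraction). Red points are the 200 members, grey points the other 1852 eligible bins, and the dashed line marks equal levels. The 32 members with a ratio above 1 lie above the line, and 7 are named by their main gene.

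Keeping 5hmC seldom meant having more of it than the other tissues. The ratio was above 1 in 32 members, the cerebellum mean was above both other tissue means in 18, and all 3 cerebellum libraries were above all 6 others in 9. In 147 members all 3 cerebellum libraries were still below all cortex libraries, and in 88 they were below all olfactory bulb libraries. Among the other eligible bins these counts were 1849 and 1836 of 1852. The olfactory bulb mean was above the cortex mean in 30 members (15.0%), against 12.4% of the other eligible bins.

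The bin with the highest ratio holds Fgf14, which encodes a fibroblast growth factor homologue that stays in the cell and modulates voltage-gated sodium channels. Its 5hmC level was 0.177, 0.194 and 0.159 in the cortex libraries, 0.159, 0.170 and 0.166 in those of olfactory bulb, and 0.249, 0.238 and 0.244 in those of cerebellum. Cerebellum was above every other library, with a ratio of 1.427. This bin lies at the end of chromosome 14, whose sequence stops at 124902244, so that it covers less than a full megabase. In the bin of Cadps2, a protein that primes dense-core vesicles for release, cerebellum had 0.177, 0.182 and 0.180, cortex 0.160, 0.174 and 0.152, and olfactory bulb 0.121, 0.126 and 0.122. Here cerebellum lay just above cortex and clearly above olfactory bulb. The bin of Rims1, a scaffold protein of the presynaptic active zone, had means of 0.191 ± 0.0146 in cortex, 0.205 ± 0.00502 in cerebellum and 0.142 ± 0.00320 in olfactory bulb, and its cortex and cerebellum libraries overlapped.

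**Figure D2:**
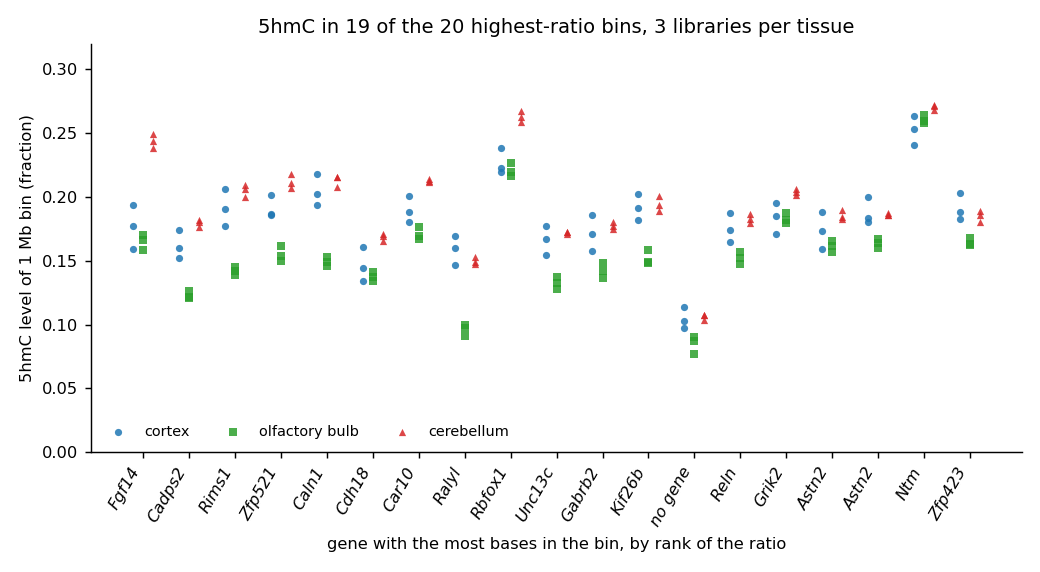
5hmC level (vertical axis, fraction) of 19 of the 20 members with the highest ratio, named by the gene with the most bases in the bin and ordered by ratio from left to right. Each point is 1 library (3 per tissue). Cerebellum stands above all other libraries in the Fgf14, Cadps2, Zfp521, Cdh18, Car10, Rbfox1, Grik2 and Ntm bins, while in the Ralyl bin cortex and cerebellum overlap and olfactory bulb lies below both.

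The high ratios arose from different patterns. In the bin of Rbfox1, a neuronal splicing regulator, all 3 tissues were high, at 0.263 ± 0.00451 in cerebellum, 0.227 ± 0.0102 in cortex and 0.221 ± 0.00497 in olfactory bulb. In the bin of Ralyl, an RNA-binding protein, the ratio of 1.178 came with a low olfactory bulb level of 0.0960 ± 0.00469, while cortex had 0.159 ± 0.0114 and cerebellum 0.150 ± 0.00289. The bin of rank 14, at 19000001 to 20000000 on chromosome 6, holds no protein-coding gene and had low levels throughout, at 0.105 in cortex, 0.106 in cerebellum and 0.0848 in olfactory bulb.

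Main genes of other bins among the 20 highest ratios serve several roles in neurons. Synaptic proteins were Unc13c (rank 10), a vesicle-priming factor found largely in cerebellum, Car10 (rank 7), a catalytically inactive relative of the carbonic anhydrases, and the adhesion proteins Cdh18 (rank 6) and Ntm (rank 19). Receptors were Grik2 (rank 16), a kainate receptor subunit, and Gabrb2 (rank 12), a GABA-A receptor subunit whose bin also holds Gabra6, a subunit used by granule neurons. Genes of neuronal development and migration were Reln (rank 15), Astn2 (ranks 17 and 18) and Kif26b (rank 13), and the transcription regulators were Zfp521 (rank 4) and Zfp423 (rank 20), whose bin also holds Cbln1, a synapse organizer secreted by granule neurons. Caln1 (rank 5) encodes a neuronal calcium-binding protein.

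Members carried more gene sequence than the other eligible bins. Protein-coding genes covered a median of 61.8% of a member and 45.9% of another eligible bin. A member held a median of 9 protein-coding genes against 6, and its longest gene had a median length of 274 kb against 199 kb. The median GC content was 44.7% against 42.2%, and there were 10.4 CpG sites per kb against 8.64. Only 3 members (1.5%) had no protein-coding gene, against 4.81% of the other eligible bins.

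Long genes filled the bins at the very top of the ranking, and gene-dense bins came further down. In 15 of the 20 highest-ratio bins a single gene covered at least 400 kb, against 18 of the 80 bins of ranks 21 to 100 and 16 of the 100 bins of ranks 101 to 200. None of the 20 highest-ratio bins held 20 genes or more, while 20 and 25 of the lower ranks did, the first at rank 22 with Cacna1a and Nfix. Over all members, 49 bins (24.5%) had a gene covering at least 400 kb and 45 (22.5%) held at least 20 genes, against 13.0% and 11.3% of the other eligible bins. The 49 long-gene bins averaged 0.191 for 5hmC in cerebellum, against 0.199 in cortex and 0.189 in olfactory bulb. The 44 gene-dense bins without such a gene had 0.149, 0.177 and 0.154.

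**Figure D3:**
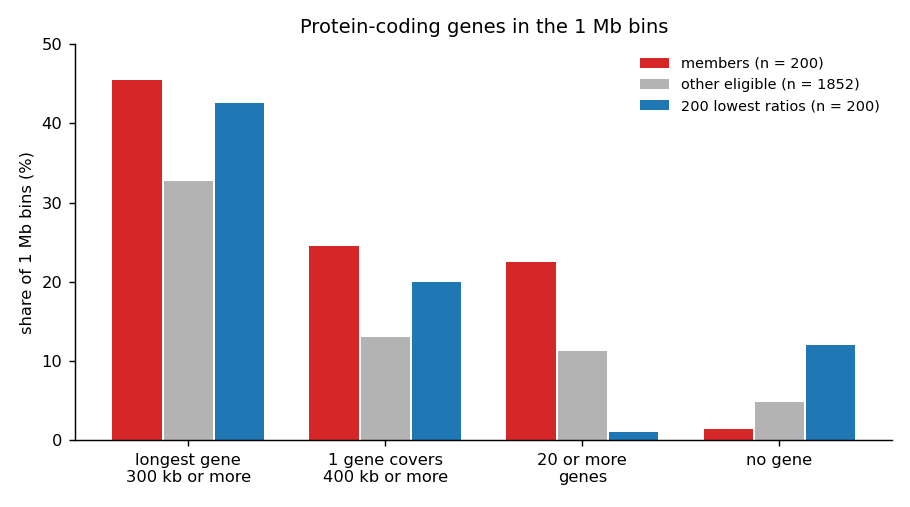
Share of 1 Mb bins (vertical axis, %) with each feature of protein-coding genes, for the 200 members (red), the other 1852 eligible bins (grey) and the 200 eligible bins with the lowest ratio (blue). Long genes were nearly as common at the low end of the ratio as among members (42.5% against 45.5%), while bins with 20 or more genes were 22.5% of members and 1.00% of the lowest.

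Gene length alone did not separate members from the opposite end of the ranking. Among the 200 eligible bins with the lowest ratio, 42.5% had a gene of at least 300 kb, against 45.5% of members and 32.7% of all eligible bins outside the members. When each gene was assigned to the bin that holds most of it, 2480 of 18293 protein-coding genes (13.6%) fell in a member. Of the 513 genes of at least 300 kb, 71 (13.8%) did, close to the share of all genes (among the 100 highest ratios the shares were 7.80% of long genes and 5.94% of all), and of the genes under 10 kb 14.8% did. The median gene length was 16.8 kb in members and 20.5 kb in the other eligible bins. This order turned when all annotated genes were taken, at 4.71 kb and 4.07 kb. The 6 member genes longer than 1 Mb included Rbfox1 (1526 kb), Pde4d (1504 kb), a cyclic AMP phosphodiesterase, Anks1b (1100 kb), a postsynaptic protein, and Astn2 (1024 kb). The longest, Gm20388 at 4435 kb, is an annotated locus that spans 38 other protein-coding genes on its strand.

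Members were spread over all 19 autosomes, from 3.13% of the eligible bins of chromosome 3 to 17.2% of those of chromosome 5. Of the 200 bins, 71 lay in 33 runs of neighbouring members, the longest of 3 bins, and 16 (8.00%) lay in the last 5 Mb of a chromosome against 3.89% of the other eligible bins.

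Genes known for their use in cerebellar granule neurons were often in members. Of 35 listed genes 22 (62.9%) had their bin among the members, in 20 bins, against 13.6% of all protein-coding genes with an eligible bin. They include the transcription factors Zic1, Zic2, Zic4, Zic5, Nfia, Nfib, Nfix, Nfic and Barhl1, the receptor subunits Gabra6, Gabrd and Grin2c, the potassium channels Kcnd2 and Kcnk1, and Fgf14, Cadps2, Car10, Cbln1, Chn2, Fat2, Rbfox3 and Unc5c. The 13 genes outside the members include Neurod1, whose bin had a ratio of 0.597, and Unc5d, whose bin was among the 200 lowest with 0.398. Zic1 and Zic4 share a bin, as do Zic2 and Zic5, so that the genes of a list are not independent. The lists were drawn up with earlier results of these data known and carry no test.

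The lists for other cells of the brain were less represented. Members held the bins of 7 of 35 genes of Purkinje cells (20%), 2 of 21 of oligodendrocytes (9.52%), 2 of 21 of cortical excitatory neurons (9.52%), 1 of 22 of olfactory bulb interneurons (4.55%), and 0 of 19 of astrocytes and Bergmann glia. By function, members held 14 of 39 voltage-gated channel genes (35.9%), among them the calcium channel subunits Cacna1a, Cacna1c, Cacna1e, Cacna1g and Cacna1i. They also held 5 of 16 GABA receptor genes (31.2%), 6 of 24 glutamate receptor genes (25%), 5 of 31 axon guidance genes (16.1%) and 8 of 52 neuronal adhesion genes (15.4%). Of the genes of DNA methylation and its oxidation 3 of 18 were in members (16.7%), namely Mbd3, Gadd45b and Dnmt3b, and of the housekeeping genes 6 of 24 (25%).

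The 5mC of the members was read at 100 kb from oxBS-seq, which the choice of bins did not use. Because both marks compete for the same cytosines, the choice by 5hmC still bears on 5mC. The comparisons below of members with other bins, and of ranks, are therefore not independent of the choice. Of the 1993 bins of 100 kb inside the members, 1990 could be tested. Their mean 5mC level was 0.632, 0.638 and 0.612 in the cortex libraries, 0.664 and 0.656 in the olfactory bulb libraries and 0.661 and 0.645 in the cerebellum libraries. In the 18482 tested bins inside the other eligible bins it was 0.675, 0.678 and 0.651, then 0.701 and 0.696, then 0.742 and 0.725. The members minus the other bins gave -0.0426, -0.0401 and -0.0389 in the cortex libraries, -0.0371 and -0.0394 in those of olfactory bulb, and -0.0814 and -0.0808 in those of cerebellum. Cerebellum was thus the tissue with the highest 5mC outside the members, while inside them its libraries overlapped those of olfactory bulb.

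The sum of 5mC and 5hmC in the members was 0.820 in cerebellum, 0.817 in cortex and 0.832 in olfactory bulb, differences no larger than the combined SD of 0.0177 for cortex. In cerebellum 5hmC made up 20.4% of this sum in members and 12.3% in the other eligible bins, in cortex 23.2% and 21.2%, and in olfactory bulb 20.7% and 18.7%. Across the 200 members, the ratio of 5hmC and the difference in 5mC between cerebellum and cortex had a Pearson's r of -0.28, and across all 2052 eligible bins it was -0.56. These are descriptions across bins, which share libraries, neighbours and CpG content.

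Each 100 kb bin was then tested with limma over the whole genome, and a bin was called where the p-value, adjusted after Benjamini and Hochberg over all bins, was under 0.05. Against cortex, cerebellum was higher in 990 of the 1990 bins (49.7%), against 71.9% of all bins of the genome, and lower in 276 (13.9%), against 4.44%. All bins together moved by a median of 0.43 on the log2(level/(1 − level)) scale. After each library was centred on its median, 235 member bins were higher (background 25.7%) and 895 lower (background 24.3%). Without cortex replicate 3, 907 were higher and 324 lower. At least 1 lower 100 kb bin lay in 141 of the 200 members and at least 3 in 36. Only 1 member had no call against cortex, where 71.9% of all bins of the genome were called higher. Such counts per 1 Mb bin, here and against olfactory bulb below, were not made for the other eligible bins, so that they do not set members apart. When the levels were averaged over 1 Mb, 107 of the 200 members were higher (background 82.5%) and 7 lower (background 3.02%).

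Against olfactory bulb, cerebellum was higher in 429 member bins (21.6%, background 35.3%) and lower in 445 (22.4%, background 7.69%), in 168 of the 200 members. With centred libraries 249 were higher (background 22.1%) and 815 lower (background 21.3%), where the median shift of all bins was 0.19. Of the 1 Mb averages 23 were higher (background 49.8%) and 43 lower (background 7.36%). The count of higher bins was 277 and 221 without olfactory bulb replicate 1 or 2 and 201 without cerebellum replicate 1. Between olfactory bulb and cortex, 803 member bins were higher in olfactory bulb (40.4%, background 37.6%) and 70 lower (3.52%, background 2.18%), near the background. With centred libraries these were 274 (background 8.81%) and 255 (background 9.9%), and the median shift of all bins was 0.22. Of the 1 Mb averages 119 were higher (background 60.8%) and 2 lower (background 0.697%). Without cortex replicate 3 the counts were 621 higher and 88 lower. The higher count was 312 and 399, and the lower count 42 and 30, without olfactory bulb replicate 1 or 2. The comparisons share their libraries and are not independent of each other.

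Lower 5mC in the cerebellum of members was most frequent inside genes. Of the 483 member bins of 100 kb wholly inside a protein-coding gene, 132 (27.3%) were lower than in cortex and 180 (37.3%) higher, while 190 (39.3%) were lower than in olfactory bulb and 104 (21.5%) higher. Without cortex replicate 3, 152 were lower than in cortex and 168 higher. Inside genes of the other eligible bins, 2.67% were lower than in cortex and 87.1% higher. Against olfactory bulb, 4.47% of these were lower and 62.1% higher. Of the 332 member bins without a protein-coding gene, 5 (1.51%) were lower and 275 (82.8%) higher than in cortex, and without cortex replicate 3 these were 8 and 259. In the 5992 gene-free bins of the other eligible bins, 0.284% were lower and 89.5% higher than in cortex. Inside genes of at least 300 kb 26.2% of the member bins were lower than in cortex, and inside shorter genes 30.8%.

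**Figure D4:**
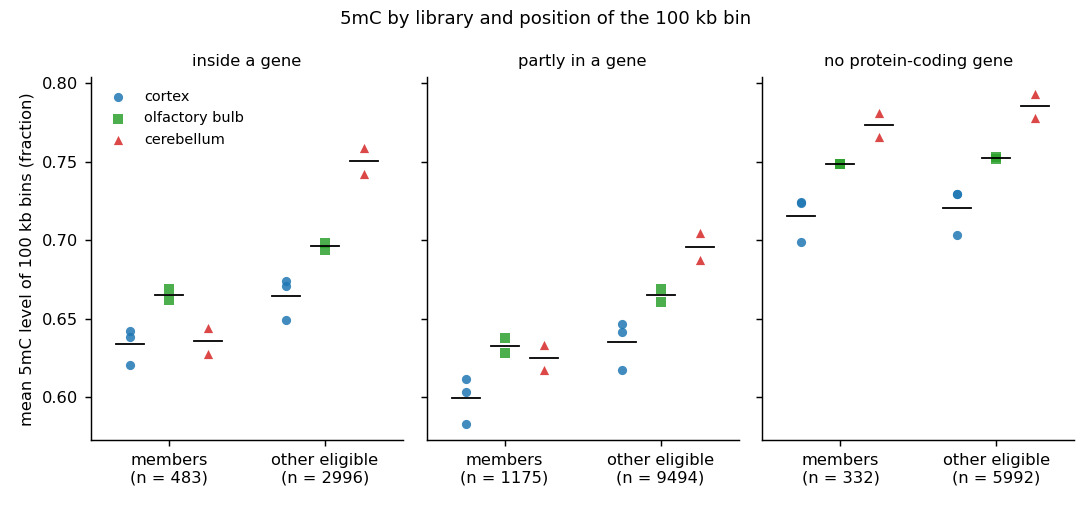
Mean 5mC level (vertical axis, fraction, not starting at 0) of 100 kb bins wholly inside a protein-coding gene, partly in a gene or without one, in members and in the other eligible bins. Points are libraries (3 of cortex, 2 of olfactory bulb, 2 of cerebellum) and lines their means. Inside genes, cerebellum was at 0.636 in members and 0.750 in the other bins, while without a gene it was at 0.773 and 0.785.

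By library, the 483 bins inside genes of members averaged 0.639, 0.642 and 0.621 in cortex, 0.669 and 0.662 in olfactory bulb and 0.644 and 0.628 in cerebellum. Cerebellum overlapped cortex and lay below olfactory bulb. Inside genes of the other eligible bins, cerebellum had 0.759 and 0.742 against 0.671, 0.674 and 0.649 in cortex, with no overlap. Without a protein-coding gene, members had 0.781 and 0.766 in cerebellum against 0.724, 0.724 and 0.699 in cortex, again with no overlap.

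The same contrast was seen within single megabases, where a shift common to a whole library cancels. In 37 members with at least 2 bins of 100 kb inside genes and 2 without a gene, the difference in 5mC between cerebellum and cortex was lower inside genes than outside in 35, with a median of -0.0701. In 329 other eligible bins it was lower inside genes in 26.4%, with a median of 0.0267. Leaving out any cortex or cerebellum library left 34 or 35 of the 37. Against olfactory bulb it was lower inside genes in 34 of 37, with a median of -0.0722. Between olfactory bulb and cortex it was lower in 15 of 37, with a median of 0.00560.

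The higher the ratio, the more bins had lower 5mC in cerebellum. In the 20 highest-ratio members 50 of 199 bins (25.1%) were lower than in cortex and 39.2% lower than in olfactory bulb. In ranks 21 to 100 the shares were 15.4% and 24.8%, and in ranks 101 to 200 they were 10.4% and 17.0%. Bins higher than in cortex were more numerous in all 3 rank groups and had no such order, at 49.2%, 45.8% and 53.0%. Without cortex replicate 3, 28.6%, 18.2% and 12.3% were lower. The 49 long-gene members had 17.2% of their bins lower and 54.0% higher than in cortex, and the 44 gene-dense members 12.1% and 31.5%.

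**Figure D5:**
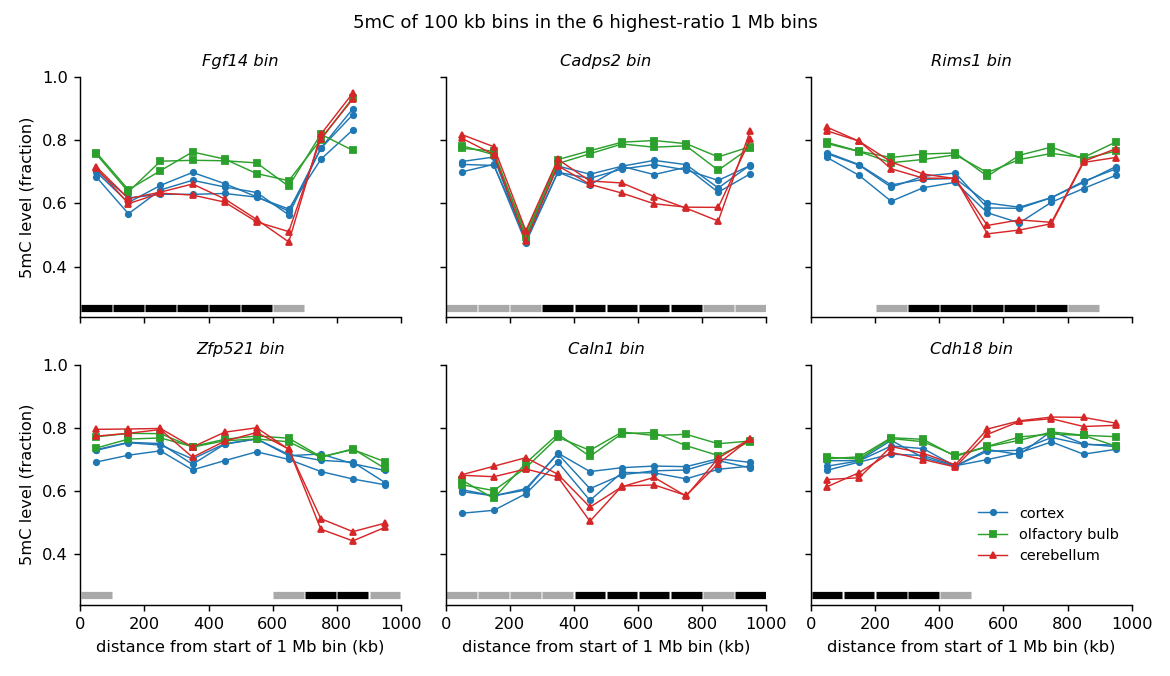
5mC level (vertical axis, fraction) of consecutive 100 kb bins along the 6 members with the highest ratio (horizontal axis, distance from the start of the 1 Mb bin in kb). Each line is 1 library. Black bars mark 100 kb bins wholly inside a protein-coding gene and grey bars bins partly in a gene. The 2 cerebellum lines dip below the others over Zfp521, Cadps2 and the part of Fgf14 near its start, and lie above cortex in the gene-free parts of the Rims1 and Cdh18 bins.

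Among the top-ranked genes, the level in Cadps2 differed between bins near its start and towards its other end. This pattern was examined after the profiles had been seen. It was found in 30 of 45 member genes with bins both near the start and far from it, as described at the end. The gene lies on the minus strand of chromosome 6 from 23262773 to 23839421. In the bin from 23700001 to 23800000, near the start of transcription, 5mC was 0.587 in cerebellum, 0.715 in cortex and 0.786 in olfactory bulb (limma log2 change against cortex -0.82, adjusted p = 6.51e-11). In the bin from 23300001 to 23400000, towards the other end of the gene, it was 0.729, 0.706 and 0.733 (0.17, adjusted p = 0.175). The bin with the promoter, from 23800001, was lower in cerebellum as well, at 0.566 (-0.53, adjusted p = 2.23e-05). The last bin of the member, from 23900001, which lies upstream of the gene, was at 0.817 in cerebellum and 0.712 in cortex and was higher in cerebellum (0.85, adjusted p = 1.14e-11).

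Fgf14, on the minus strand of chromosome 14, had the same order. Its bin from 124500001 to 124600000 was at 0.545 in cerebellum, 0.625 in cortex and 0.712 in olfactory bulb (log2 change against cortex -0.48, adjusted p = 0.000124), while its bin from 124000001 to 124100000 was at 0.714, 0.696 and 0.758 (0.12, adjusted p = 0.332). For each gene, the 100 kb bins wholly inside it are called its inner bins, also where the gene runs past the member. Rims1 had 2 of its 5 inner bins lower than in cortex and all 5 lower than in olfactory bulb, at a mean of 0.590 in cerebellum, 0.624 in cortex and 0.742 in olfactory bulb. The bin with its promoter was at 0.661 in cortex and 0.732 in cerebellum and was higher in cerebellum (0.48, adjusted p = 0.000102).

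Zfp521, a zinc finger regulator of progenitor cells, had the lowest cerebellum 5mC among the main genes of the 6 highest-ratio bins. Its inner bins averaged 0.695, 0.702 and 0.650 in the cortex libraries, 0.720 and 0.720 in olfactory bulb and 0.492 and 0.461 in cerebellum. Both bins were lower than in either other tissue, and cerebellum did not overlap them. Car10 was lower than cortex and olfactory bulb in all 5 of its inner bins, with library values of 0.555 and 0.543 in cerebellum against 0.642, 0.639 and 0.624 in cortex. Kif26b was lower in all 3 inner bins against both tissues, Reln in 3 of 4 against cortex and 4 of 4 against olfactory bulb, and Astn2 in 4 and 8 of 10.

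Other genes of high-ratio bins had few or no inner bins lower than in cortex. Ralyl was higher than cortex in 4 of 6 inner bins and lower in none, at a mean of 0.679 ± 0.0141 in cortex (n = 3) and 0.718 ± 0.0104 in cerebellum (n = 2). Against olfactory bulb, 4 of the 6 were lower and none higher. Of 15 inner bins of Rbfox1, 1 was lower and 6 higher than in cortex, and 8 were lower and 3 higher than in olfactory bulb. The 2 inner bins of Zfp423 passed the test against neither tissue.

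Most granule neuron genes in members had a bin lower in cerebellum. The 5mC of the listed genes outside the members is not given here. Of the 22 genes in members, 17 had at least 1 bin lower than in cortex, 1 had a higher bin, and 20 had a bin lower than in olfactory bulb. Zic2 and Zic5 were read from the same bin, as were Zic1 and Zic4. Read in the same way, 12.6% of the 2480 protein-coding genes in members had a bin lower than in cortex, 38.0% a higher bin, and 22.6% a bin lower than in olfactory bulb. A gene with more inner bins has more chances of a call, and of the 91 member genes with at least 2 inner bins 54 (59.3%) had a bin lower than in cortex. Of the same 91 genes, 49.5% had a bin higher than in cortex and 67.0% a bin lower than in olfactory bulb. Without cortex replicate 3 the counts of the list against cortex were the same. The median difference of the gene means was -0.0689 against cortex and -0.126 against olfactory bulb. Rbfox3, which encodes the neuronal antigen NeuN, was picked after its values were seen. It was at 0.521, 0.516 and 0.518 in the cortex libraries, 0.506 and 0.480 in olfactory bulb and 0.258 and 0.251 in cerebellum over its 4 inner bins, each lower than in both tissues. Nfix, a nuclear factor I transcription factor of neuronal maturation, was at 0.266, 0.299 and 0.295 in cortex, 0.450 and 0.422 in olfactory bulb and 0.169 and 0.180 in cerebellum. The 3 tissues did not overlap in Nfix, and in Rbfox3 cerebellum lay far below both others.

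Of the receptor genes of the list, Grin2c and Gabrd were lower than in both other tissues and Gabra6 only than in olfactory bulb. The bin with most of Grin2c, a glutamate receptor subunit of granule neurons, was at 0.334 ± 0.0296 in cerebellum, 0.521 ± 0.0206 in cortex and 0.548 ± 0.0135 in olfactory bulb. That of Gabrd, a GABA-A receptor subunit outside the synapse, was at 0.423 ± 0.0175, 0.506 ± 0.0152 and 0.520 ± 0.00348. The bin with most of Gabra6, at 0.706 ± 0.0200, 0.698 ± 0.00396 and 0.772 ± 0.00257, was lower than in olfactory bulb and passed no test against cortex. The bin with most of Cbln1 was lower than in both tissues, at 0.492, 0.583 and 0.628. The shared bin of Zic1 and Zic4 was lower than in olfactory bulb and not called against cortex, and the bins of Nfic and Barhl1 were called in neither comparison. Zic1, Zic4, Nfic and Barhl1 were also picked after their values were seen.

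The other lists hold fewer genes in members. Of the 7 Purkinje cell genes 2 had a bin lower and 2 a bin higher than in cortex, 2 had a bin lower than in olfactory bulb, and the median difference from cortex was 0.0218. Among the lower was Cacna1a, a calcium channel subunit. Cacna1a was at 0.567, 0.528 and 0.543 in the cortex libraries, 0.627 and 0.603 in olfactory bulb and 0.376 and 0.380 in cerebellum. Of 14 voltage-gated channel genes 8 had a bin lower and 5 a bin higher than in cortex, and 7 a bin lower than in olfactory bulb. Kcnc1, a potassium channel of fast-firing neurons, was at 0.628 ± 0.0177 in cortex and 0.416 ± 0.0206 in cerebellum, and Cacnb4, a calcium channel subunit, at 0.584 ± 0.00863 and 0.452 ± 0.0169. Of 6 glutamate receptor genes 5 had a lower bin and 1 a higher, of 8 adhesion genes 4 and 5, of 5 GABA receptor genes 1 and 1, and of 5 axon guidance genes 1 and 1. A bin lower than in olfactory bulb was found in 4 of the glutamate receptor genes, 6 of the adhesion genes, all 5 GABA receptor genes and 3 of the axon guidance genes. Of the 2 oligodendrocyte genes Pde4b had 1 lower and 4 higher bins of 5 and Zfp536 none of either, and both had a bin lower than in olfactory bulb. Bins lower than in cortex were absent from the 2 cortical excitatory neuron genes, the olfactory bulb interneuron gene, the 3 genes of DNA methylation and oxidation and the 6 housekeeping genes, of which 1, 1, 1 and 2 had a higher bin, among them Cux2, Dnmt3b, Rab7 and Actb. Against olfactory bulb 1, 1, 0 and 1 had a lower bin.

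The largest falls from cortex to cerebellum were in Chd7, Grm4 and Chn2. The bin from 8700001 to 8800000 on chromosome 4, wholly inside Chd7, a chromatin remodeller needed for granule neuron development, was at 0.619, 0.617 and 0.590 in the cortex libraries, 0.585 and 0.582 in olfactory bulb and 0.187 and 0.192 in cerebellum. Its log2 change against cortex was -2.74 (SE 0.117, adjusted p = 3.13e-90), and the window printed above is from this bin, which holds 1312 CpG sites. Its 1 Mb bin was only rank 195, with 5hmC at 0.165 in cerebellum, 0.198 in cortex and 0.192 in olfactory bulb. The bin from 27400001 to 27500000 on chromosome 17, of which Grm4, a presynaptic glutamate receptor of granule neurons, covers 77.6%, was at 0.693 ± 0.0294, 0.587 ± 0.0173 and 0.332 ± 0.0102 (log2 change -2.19, adjusted p = 1.11e-61). The bin from 54100001 to 54200000 on chromosome 6, inside Chn2, which encodes a Rac-inactivating protein, was at 0.643 ± 0.0305, 0.651 ± 0.0155 and 0.330 ± 0.000358 (-1.87, adjusted p = 3.82e-47). The standard error of limma was nearly the same in all bins, between 0.117 and 0.146 for this comparison, so that a p-value does not reflect a bin's own spread.

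The largest rises from cortex to cerebellum in members were smaller. They were in Anks1b, at 0.468 ± 0.00867 in cortex and 0.667 ± 0.0135 in cerebellum (log2 change 1.18, adjusted p = 1.02e-20), in 2900026A02Rik, at 0.472 ± 0.0277 and 0.664 ± 0.0180, and in Abr, a regulator of small GTPases, at 0.431 ± 0.0128 and 0.621 ± 0.0183. Against olfactory bulb, Chd7 and Chn2 were again among the 3 largest falls, with Cnksr3, a signalling scaffold, at 0.712 ± 0.00522 in olfactory bulb and 0.367 ± 0.0227 in cerebellum (-2.09, adjusted p = 3.89e-49). The largest rises were in Nsg2, a vesicle protein of neurons (0.462 to 0.685), Ppp1r12b, a subunit of myosin phosphatase (0.507 to 0.720), and Abr (0.410 to 0.621).

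Between olfactory bulb and cortex the largest differences within the members were smaller still. The largest falls were in 2 neighbouring bins of Zfp385b, a zinc finger gene, at 0.684 and 0.647 in cortex and 0.516 and 0.482 in olfactory bulb, and in Ppp1r12b, at 0.655 and 0.507. The largest rises were in Gabbr2, a GABA-B receptor subunit (0.519 to 0.707, log2 change 1.16, adjusted p = 5.16e-19), Dock9, an exchange factor of Cdc42 (0.540 to 0.726), and Kif1b, an axonal kinesin (0.513 to 0.696). In these 3 bins cerebellum lay near cortex, at 0.540, 0.565 and 0.515.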

How the data were processed

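The levels of 5hmC came from 9 TAB-seq libraries and those of 5mC from 7 oxBS-seq libraries of mouse cortex, olfactory bulb and cerebellum. According to the submitters' notes and the methods, reads were mapped uniquely to mm10 with Bismark. The authors deposited the level of each bin as a fraction, for 2641 bins of 1 Mb (TAB-seq) and 26327 bins of 100 kb (oxBS-seq), with no counts, so that depth is unknown. The way in which a bin's value was made from its CpG sites is not given in the sources used here. Groups and replicate numbers were taken from the labels. Sequencing batches are not given there.

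The members were the 200 autosomal bins with the highest ratio among those at 0.05 or above in every TAB-seq library. The members and gene lists were chosen with earlier results of these data known. Bins of 100 kb listed at 0 or 1 in any library (663) were left out. The remaining 25664 bins were converted to log2(level/(1 − level)) and all 7 libraries were fitted together (R 4.3.3, limma 3.58.1), with Benjamini-Hochberg adjustment over all bins. The fit was also run on simulated levels, with independent noise of the spread it had estimated itself and a change in 200 bins. The simulation had no shift of a whole library, so that it does not show how the fit deals with such shifts. With 4 residual degrees of freedom, the prior degrees of freedom were 905. Genes came from GENCODE M21 and sequences from RefSeq GRCm38.p6, where all 3 promoters sought were listed. Genes named were the one with the most bases in each of the 20 highest-ratio bins, the 15 longest, up to 6 per list by ratio (more where the text says so, chosen after their values were seen), and the 3 largest falls and rises per 5mC comparison among called bins whose libraries did not overlap. A few results under this rule are not reported here. Python 3.11.15 with numpy 2.4.6, pandas 2.3.3 and matplotlib 3.10.9 was used otherwise. Alternatives were other minimum levels and scores for the members, the fraction scale, centred libraries, keeping every bin with values held between 0.001 and 0.999, the trend and robust options of limma, replicate blocks, 1 Mb averages, other gene sets and leaving out each library. Leaving out Gm20388 and leaving out the bins of the granule neuron list were added after the data were seen.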

Additional observations from a re-analysis of the deposited data

How the results depend on the processing

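Of the 200 members, 166 to 199 were kept under other minimum levels and scores, and 190 to 198 without any single TAB-seq library. The 18 largest 5mC differences named in the text kept their direction and stayed past the threshold in all 234 repeats. They had been picked as the largest called differences in the same libraries, and some bins recur between comparisons. The repeats could therefore hardly have come out otherwise, and they say nothing about weaker calls. The counts of 5mC calls moved by more than 1.5 times in 3 ways. Centred on each library's median, the members had 235 higher and 895 lower bins for cerebellum against cortex, 249 and 815 for cerebellum against olfactory bulb, and 274 and 255 for olfactory bulb against cortex. Averaged to 1 Mb, where 200 bins were counted in place of 1990, these were 107 and 7, 23 and 43, and 119 and 2. In shares, the lower calls against cortex went from 13.9% to 3.5%, next to 3.02% of all 1 Mb averages, and the cause was not tested. Without single oxBS-seq libraries they ranged from 680 to 1010 and 192 to 324, from 201 to 527 and 308 to 513, and from 312 to 828 and 30 to 88. Leaving out a library of olfactory bulb or cerebellum left that tissue with 1 library, which was assumed to vary like the others, and for the other moved counts the cause was not tested.

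Same-numbered libraries had correlations of their deviations between -0.0932 and 0.0290. These values gave no sign that the numbers pair the samples. They cannot exclude it, since a shared mouse need not show in such deviations, so that the pairing is unknown. With the label number as a replicate block the counts for cerebellum against cortex were 926 and 328, for cerebellum against olfactory bulb 540 and 525, and for olfactory bulb against cortex 663 and 96. With the numbers of the deposited library names, which differ for olfactory bulb and cerebellum, the block gave 1088 and 266, 405 and 436, and 990 and 85. Without the 20 bins of the granule neuron list 229 of 1791 bins (12.8%) were lower than in cortex. Over all annotated genes the median length was 4.71 kb in members and 4.07 kb in the other bins, the opposite order from protein-coding genes. The share of long genes in members was 7.80% for the 100 highest ratios and 20.9% for the 300 highest, where the shares of all genes were 5.94% and 21.2%, and 13.7% without Gm20388. The mean 5mC of members differed by -0.0154 to 0.000512 between cerebellum and olfactory bulb without single libraries.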

Other observations

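Within the long genes of the members, the 5mC of cerebellum was lowest near the start of the gene, a pattern examined after the profiles had been seen. Bins of 100 kb wholly inside genes of at least 300 kb, without Gm20388, were grouped by the distance of their middle from the gene's start. At 50 to 150 kb, 30 of 69 member bins (43.5%) were lower in cerebellum than in cortex, with means of 0.617 in cerebellum, 0.642 in cortex and 0.673 in olfactory bulb. At 150 to 300 kb the share was 27.9% of 104 bins, at 300 to 500 kb 21.2% of 85, and beyond 500 kb 14.1% of 85. Inside long genes of the other eligible bins the shares were 3.69%, 1.73%, 1.60% and 0.578%. There too the 5mC of cerebellum was lowest near the start, with means of 0.749, 0.757, 0.766 and 0.771 in the same order. This was shared by olfactory bulb (0.692, 0.697, 0.703 and 0.715) and cortex (0.663, 0.668, 0.671 and 0.672) of those bins. In members, olfactory bulb and cortex were instead lowest beyond 500 kb, at 0.656 and 0.632. The shares higher than in cortex were 29.0%, 34.6%, 40% and 48.2% in members, against 86.9%, 87.9%, 90.9% and 94.4% in the other eligible bins. In 45 member genes with bins both under 150 kb and beyond 300 kb from the start, the difference between cerebellum and cortex was lower near the start in 30, with a median of -0.0452. In 253 genes of the other eligible bins it was lower in 49.0%, with a median of 0.000799. Between olfactory bulb and cortex it was lower near the start in 23 of the 45. Without cortex replicate 3 the shares of lower member bins were 46.4%, 31.7%, 25.9% and 20%. These are counts without a test.

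The X chromosome had no part in the choice of members. Of its 171 bins 40 reached the minimum level, their median ratio was 0.648, and 4 had a ratio at or above that of the lowest member, up to 1.286. Of the 418 autosomal bins below the minimum, 270 were below it only in cerebellum and 57 were listed at 0 in all libraries, so that the bins with the least 5hmC in cerebellum are not among those compared.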
